A study of Mus musculus with 9 samples.

Results

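Transcripts of the acute phase proteins Saa1, Saa2, Saa3, Mbl2 and Lcn2 were followed in the distal small intestine of mice. These genes were selected on measured intensities, since Saa3 and Mbl2 were already known to differ between BP and Rag1 arrays of this study. Every probe set that the platform annotation assigned to exactly 1 of these symbols was taken, which gave 6 probe sets for 5 genes, out of 45037 probe sets and 18193 genes on the Affymetrix array. There were 9 arrays in 3 groups of 3: BP, Rag1 and B6. All mice had carried the gut symbiont Bacteroides thetaiotaomicron for 10 days, and each RNA sample pooled pieces 10, 11, 12 and 14 of an intestine cut into 16. The BP and Rag1 arrays share a source label that names Rag 1 tissue, from mice named for a gene without which antibodies and T cell receptors are not assembled; the B6 arrays are labelled as wild type. The labels do not spell out BP, and they give no allele, age or sex and do not say whether an array stands for 1 mouse, so a p-value here reflects how much these samples vary, which may be technical. The series title names IgA, the antibody secreted into the gut, as the subject of the comparison.

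The acute phase response is the rise of a set of plasma and mucosal proteins after infection or injury, driven by cytokines such as interleukin-6, interleukin-1 and interleukin-22 through STAT3, NF-kappaB and C/EBP factors. Serum amyloid A proteins are small lipid- and retinol-binding proteins. In mice Saa1 and Saa2 are made by liver and by the epithelium of ileum and colon, where gut bacteria can induce them, and Saa3 is made mainly outside the liver, for example by macrophages, fat and gut epithelium. Mbl2 encodes the mannose-binding lectin C, which binds microbial sugars and starts the lectin pathway of complement and is made by liver and small intestine. Lcn2 encodes lipocalin 2, which withholds iron from bacteria by binding their siderophores and is a product of neutrophils and inflamed epithelium.

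Saa3, Saa4, Saa1 and Saa2 lie next to each other on mouse chromosome 7 in the RefSeq annotation of assembly GRCm38.p6. The 250 bases before the transcription start of Saa1 and Saa2 are shown because these genes had nearly the same profile over the arrays, and those of Saa3 because its profile was different. The sequences are RefSeq's for GRCm38.p6 and read 5′ to 3′ on the gene's strand. Capitals mark matches to the C/EBP motif TTNNGNAA on either strand.
Saa1, chr7:46742981-46743230, minus strand: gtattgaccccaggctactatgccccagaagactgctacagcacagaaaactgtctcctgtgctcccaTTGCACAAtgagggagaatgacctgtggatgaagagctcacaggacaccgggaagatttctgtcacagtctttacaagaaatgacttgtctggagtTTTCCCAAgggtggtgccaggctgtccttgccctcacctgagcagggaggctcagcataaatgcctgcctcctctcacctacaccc
Saa2, chr7:46751583-46751832, plus strand: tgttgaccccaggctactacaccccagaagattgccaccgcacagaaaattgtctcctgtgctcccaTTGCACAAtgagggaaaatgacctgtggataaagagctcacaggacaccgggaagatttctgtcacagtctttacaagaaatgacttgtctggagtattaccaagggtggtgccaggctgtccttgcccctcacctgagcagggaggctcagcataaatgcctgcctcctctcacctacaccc
Saa3, chr7:46715677-46715926, minus strand: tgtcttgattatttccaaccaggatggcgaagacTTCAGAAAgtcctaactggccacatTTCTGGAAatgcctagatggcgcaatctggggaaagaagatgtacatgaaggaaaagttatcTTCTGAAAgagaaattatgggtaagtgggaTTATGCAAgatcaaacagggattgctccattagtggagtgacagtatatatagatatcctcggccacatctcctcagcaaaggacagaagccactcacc
Aligned end to end, the Saa1 and Saa2 stretches were identical at 238 positions, with 11 mismatches and 2 gaps, an identity of 94.8%. Saa3 had an identity of 48.5% with Saa1 and 47.8% with Saa2. The C/EBP motif occurred 2 times before Saa1, once before Saa2 and 4 times before Saa3, and 36.9% of all 32841 promoters of this length hold it. It occurred once before Lcn2 and not before Mbl2. The STAT3 motif TTCNNNGAA, the NF-kappaB consensus and the TATA box letters TATAAA were searched on both strands too and were in none of the 5 windows; 7.02%, 7.25% and 12.4% of all promoters hold them. These matches are descriptions of letters and say nothing about binding.

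What the probe sets of Saa1 and Saa2 measure is a separate question, since the stretches above precede the transcripts. Probe sets 1450788_at and 1419075_s_at are annotated to Saa1 and 1449326_x_at to Saa2. The database sequence behind 1419075_s_at is one that RefSeq lists under Saa2, although the platform annotation gives it to Saa1. The suffixes s and x stand for probes shared with other transcripts. Probe set 1450788_at has no such suffix, but its specificity for Saa1 was not checked. Signal of Saa1 and Saa2 is therefore not told apart here. Over the 9 arrays the 3 probe sets correlated with each other at r = 0.968 to 0.973, with no test because their probes may overlap. Saa3, Mbl2 and Lcn2 had 1 probe set each. Of the 6 probe sets, 5 passed the brightness filter. Lcn2 was below the filter, a mean of 5.30 on the log2(intensity + 16) scale over all arrays, or an intensity of about 23.5. The Saa1 and Saa2 probe sets passed through the Rag1 arrays and BP replicate 1, where they were high, so counts over the tested probe sets are given as descriptions.

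The arrays held intestine as labelled, with qualifications that touch the values below. All 9 enterocyte markers passed that filter, and the ileal bile acid binding gene Fabp6 had an intensity of at least 2313 on every array. Fabp6 varied from 2313 to 10283.5 within Rag1. Slc10a2, another gene of that list, was dim, at 19.5 to 68.7 in BP, 10.5 to 98.0 in Rag1 and 14.9 to 27.4 in B6. The summed level of B cell and plasma cell markers was 164 to 176 in BP and 158 to 159 in Rag1, against 3194 to 9159 in B6. The Rag1 transcript was too dim to check the labels (at most 22.8 on any array). The 3′ to 5′ signal ratio of the beta-actin control, which is higher when RNA is shortened, was 14.2, 2.43 and 20.2 on BP replicates 1, 2 and 3, against 1.53 to 1.77 in Rag1 and 1.76 to 4.17 in B6. The female transcript Xist had intensities of 36.0, 624 and 1735 on BP replicates 1, 2 and 3, 5.84 to 24.1 in Rag1 and 1086 to 1539 in B6. The Y-linked gene Eif2s3y had 17.0, 3.16 and 3.34 on the BP arrays in the same replicate order, 44.9 to 109 in Rag1 and 1.4 to 7.22 in B6. Sex-linked signal and group therefore cannot be told apart between Rag1 and B6, and differed within BP.

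As background for the calls, 3.80% of the 27022 tested probe sets passed in BP against Rag1 (298 higher and 729 lower), 0.329% in Rag1 against B6 (0.0703% higher and 0.259% lower) and 0.633% in BP against B6 (0.0592% higher and 0.574% lower). The 3 arrays of one group lay wholly above or below those of the other for 21.7% of probe sets in BP against Rag1 (7.10% above and 14.6% below). This share was 19.1% in Rag1 against B6 (14.0% above and 5.10% below) and 16.7% in BP against B6 (2162 above and 2363 below).

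Saa3 was highest on all BP arrays, intermediate on the B6 arrays and lowest on the Rag1 arrays. Its deposited intensity was 510.2, 994 and 796 on BP replicates 1, 2 and 3, 39.997, 18.8 and 37.3 on Rag1 replicates 1, 2 and 3, and 59.1, 115 and 68.3 on B6 replicates 1, 2 and 3. No value of one group overlapped those of another. The lowest BP array was above the brightest B6 array, and within a group the highest array exceeded the lowest by 1.95-fold in BP, 2.13-fold in Rag1 and 1.94-fold in B6. Among all probe sets of an array, Saa3 stood at percentiles of brightness of 93.5 to 95.9 in BP, 28.2 to 53.8 in Rag1 and 68.6 to 77.3 in B6.

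Group means on the normalized log2(intensity + 16) scale were 9.59 ± 0.35 for BP, 5.52 ± 0.39 for Rag1 and 6.64 ± 0.34 for B6 (SD, n = 3 each). The difference between BP and Rag1 was 4.07 ± 0.29 (SE), about 16.8-fold on this scale. Since that comparison led to the choice of the genes, no p-value is given for these genes in it, and their calls there are only counted. BP exceeded B6 by 2.95 ± 0.29 (95% interval 2.33 to 3.58), 7.74-fold (limma, adjusted p = 0.000493, range over alternatives 3.37e-05 to 0.00666). That comparison reuses the high BP arrays on which Saa3 was selected, so its p is no independent support. The Rag1 mean was below the B6 mean by a log2 difference of -1.12 ± 0.29, which did not pass in limma (adjusted p = 0.281, range over alternatives 0.0171 to 0.877), although the 3 Rag1 arrays were all below the 3 B6 arrays. With BP replicate 2, whose actin ratio was the lowest of its group, as the only BP array, Saa3 exceeded Rag1 by 4.22 and B6 by 3.10.

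**Figure D1:**
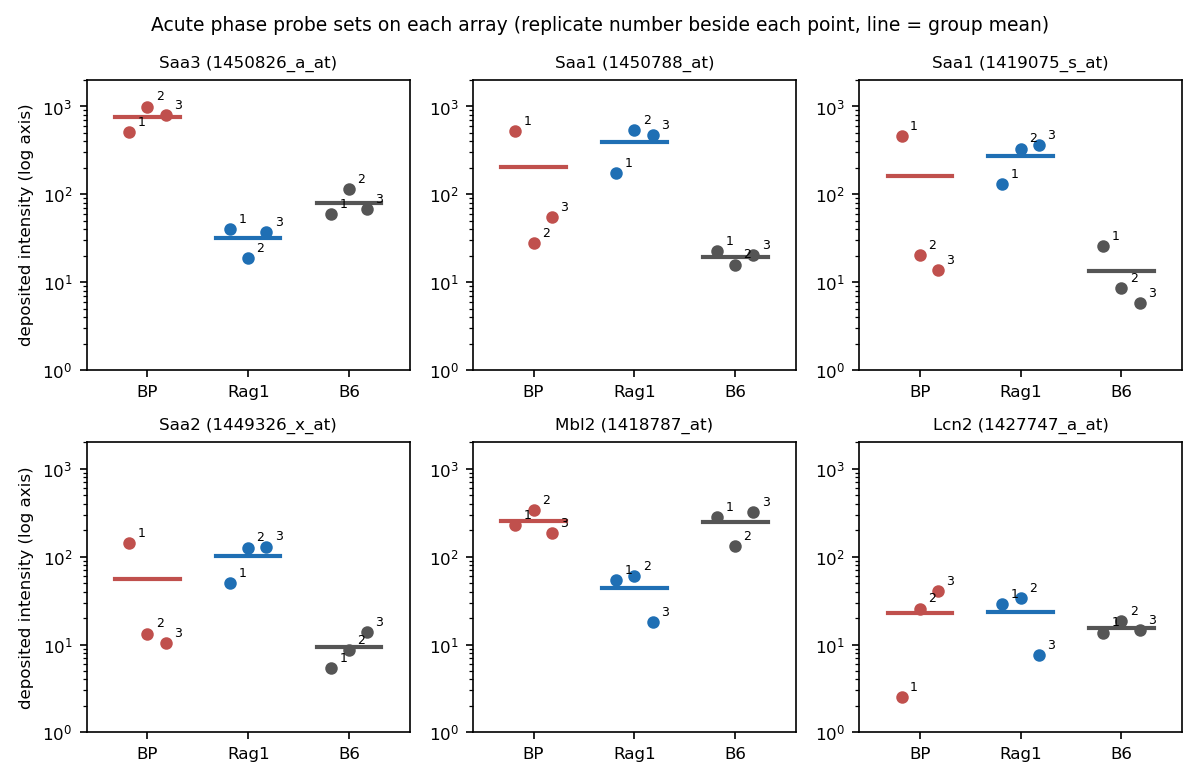
Deposited intensity of the 6 probe sets on each array (log axis); points are arrays with their replicate number, and lines are group means for BP, Rag1 and B6. Saa3 is at 510.2 to 994 on the BP arrays and at most 115 elsewhere, while the Saa1 and Saa2 probe sets split the BP group.

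Saa1 and Saa2 followed another pattern. They were high on the 3 Rag1 arrays and on BP replicate 1, and low on BP replicates 2 and 3 and on the 3 B6 arrays. Saa1 probe set 1450788_at had intensities of 528, 27.7 and 55.3 on BP replicates 1, 2 and 3, 173, 535 and 475 on Rag1 replicates 1, 2 and 3, and 22.7, 15.8 and 20.2 on B6 replicates 1, 2 and 3. The BP arrays thus spanned 19.0-fold, with BP replicate 1 inside the Rag1 range and the other BP arrays below it and above the B6 range.

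Saa1 probe set 1419075_s_at had 457, 20.4 and 13.8 on the BP arrays, 131, 331 and 366 on the Rag1 arrays, and 26.0, 8.64 and 5.79 on the B6 arrays, in replicate order. Here BP replicate 1 was the brightest of all arrays, and BP replicates 2 and 3 were within the B6 range. Saa2 probe set 1449326_x_at had 142, 13.3 and 10.3 on the BP arrays, 50.4, 126 and 129.7 on the Rag1 arrays, and 5.43, 8.56 and 13.96 on the B6 arrays. It showed the same split of the BP arrays, again with the highest value on BP replicate 1. The standard deviations of these 3 probe sets within BP were 2.10, 2.37 and 1.61 on the log2 scale. They were larger than those of all but about 1% of tested probe sets (percentiles 99.8, 99.9 and 99.2). Within Rag1 they were smaller but also ranked high, at 0.93, 0.83 and 0.68 (percentiles 99.6, 99.3 and 98.2). Within B6 their percentiles were 42.4, 93.1 and 55.3. Saa3 (0.35) and Mbl2 (0.17) were below the BP median of 0.44. Within Rag1 and B6 the percentiles were 84.5 and 72.02 for Saa3, and 94.96 and 95.4 for Mbl2.

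The arrays with high Saa1 and Saa2 were also those with low Xist and the highest Eif2s3y. BP replicate 1, at 36.0 for Xist and 17.0 for Eif2s3y, shared this with the Rag1 arrays, while BP replicates 2 and 3 had far more Xist and Eif2s3y in the B6 range. Its Eif2s3y value was still below the Rag1 range of 44.9 to 109, and dimmer than the filter's intensity of about 23.5. The part of sex-linked differences in the Saa1 and Saa2 values was not tested. The actin ratio did not split BP in the same way, since it was high on replicates 1 and 3 and low on replicate 2.

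Rag1 exceeded B6 by 3.25 ± 0.81 for 1450788_at, 3.12 ± 0.90 for 1419075_s_at and 2.03 ± 0.64 for the Saa2 probe set (log2 difference, SE, n = 3 each), or 9.51-fold, 8.71-fold and 4.10-fold. All Rag1 arrays were above all B6 arrays for each of them. In the limma fit over all 9 arrays, whose shared spread includes the split BP group, none passed (adjusted p = 0.255, 0.418 and 0.528). When only the Rag1 and B6 arrays were fitted, the same differences passed with adjusted p of 0.000467, 0.00123 and 0.00761. Over all alternatives the adjusted p ranged from 0.000467 to 1.000 for these 3 probe sets. Without BP replicate 1 the adjusted p were 0.0101, 0.00871 and 0.0379, with array weights 0.00492, 0.0184 and 0.0382, and with BP replicate 2 as the only BP array 0.00053, 0.00135 and 0.00921. Without BP replicate 2 only 1450788_at passed of the 3 (0.0111). The probe sets came through the brightness filter by way of these Rag1 arrays, which also belong to the comparison behind the choice of genes, so these p-values describe the arrays and are no independent support. The differences between BP and B6 were 1.68 ± 0.81, 1.44 ± 0.90 and 0.96 ± 0.64, and did not pass (adjusted p = 0.369, 0.508 and 0.540, range over alternatives 0.0235 to 0.986); without BP replicate 2 the first was 2.54 and passed (adjusted p = 0.0235). With BP replicate 2 as the only BP array they were -0.05, 0.08 and 0.02. Between BP and Rag1 the values were -1.57, -1.69 and -1.08, and without BP replicate 1 they were -2.74, -3.06 and -2.01.

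**Figure D2:**
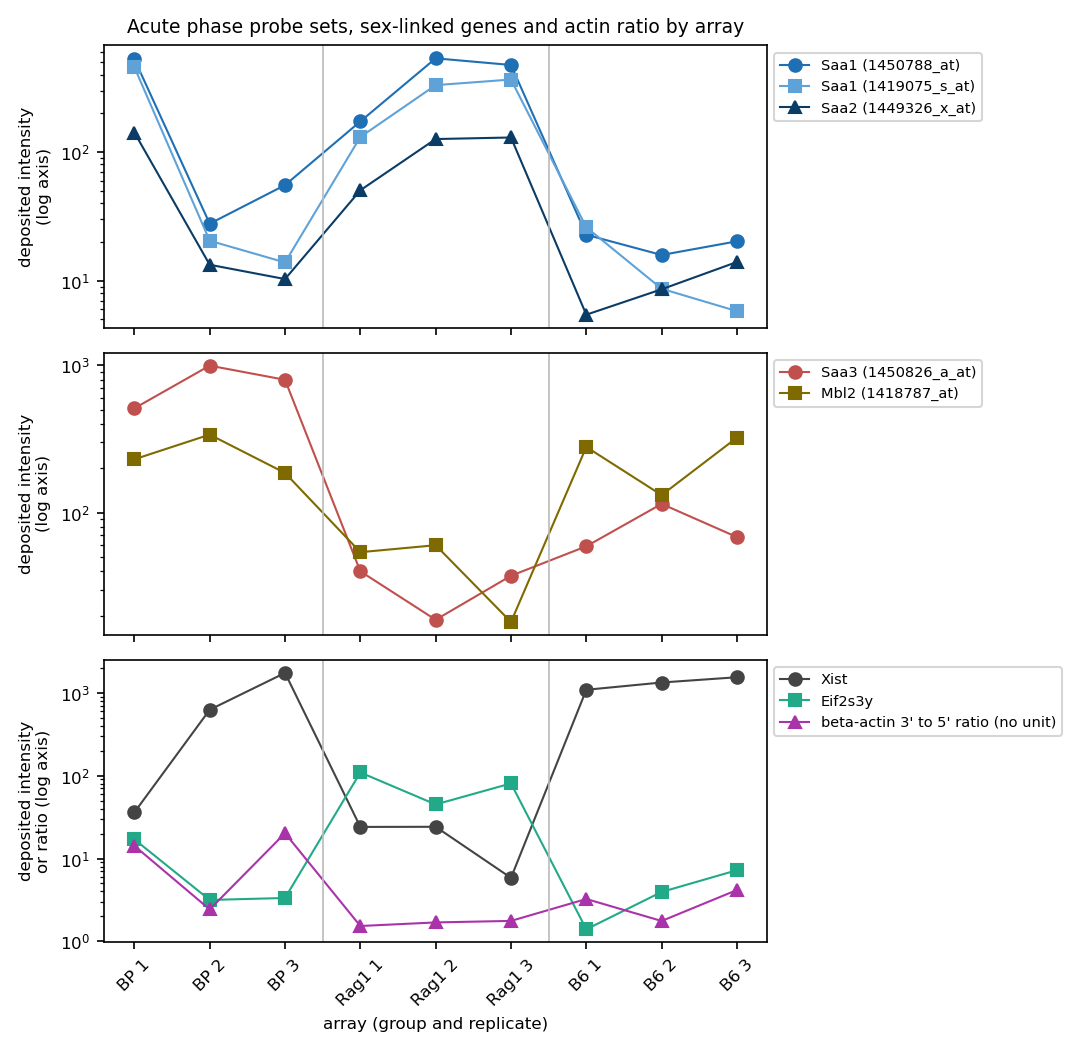
Deposited intensity of the Saa1 and Saa2 probe sets (top), Saa3 and Mbl2 (middle), and Xist, Eif2s3y and the unitless beta-actin 3′ to 5′ ratio (bottom) on each array, on log axes; lines only join the arrays. BP replicate 1 lies with the Rag1 arrays for Saa1 and Saa2 and has the lowest Xist signal of the BP arrays, at 36.0.

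Saa4, the constitutive family member, was not among the chosen genes. Its tested probe set had 53.1, 55.6 and 31.8 on the BP arrays, 14.9, 21.2 and 30.9 on the Rag1 arrays, and 22.7, 23.2 and 14.6 on the B6 arrays. It was dim throughout, and BP differed from Rag1 by 0.68 ± 0.29 (limma, adjusted p = 0.222) and from B6 by 0.68 ± 0.29 (adjusted p = 0.312). Its BP arrays all lay above its Rag1 and B6 arrays, but the lowest BP array (31.8) barely exceeded the highest Rag1 array (30.9). Against Rag1, 7.10% of all tested probe sets had BP wholly above. The second Saa4 probe set was not bright enough to be tested.

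Mbl2 was low on the Rag1 arrays alone. Its intensity was 230.1, 338 and 186 on BP replicates 1, 2 and 3, 53.9, 60.1 and 18.1 on Rag1 replicates 1, 2 and 3, and 279, 132 and 323 on B6 replicates 1, 2 and 3. The BP and B6 ranges overlapped, and every Rag1 array was below both. The Rag1 mean was lower than the B6 mean by a log2 difference of -2.17 ± 0.35 (95% interval -2.94 to -1.40; limma, adjusted p = 0.0224), which leaves 0.222 of the B6 level on this scale. This comparison reuses the low Rag1 arrays on which Mbl2 was selected, so its p is no independent support. The call was sensitive to single arrays: the difference stayed between -2.58 and -1.52 under 19 alternatives, and 12 of them passed. Leaving out Rag1 replicate 1, 2 or 3 gave an adjusted p of 0.102, 0.0634 or 0.121, leaving out B6 replicate 1 or 3 gave 0.172 or 0.169, and it was 0.0673 with the values as deposited and 0.0606 with a replicate block.

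BP and B6 did not differ in Mbl2 past the threshold (0.11 ± 0.35, 95% interval -0.66 to 0.88, adjusted p = 0.923), and the sign of this small difference changed with median centring, with array weights and without B6 replicate 2. BP exceeded Rag1 by 2.28 ± 0.35, about 4.87-fold, and by 2.43 with BP replicate 2 as the only BP array. Mbl2 therefore ordered the groups as BP and B6 together above Rag1, whereas Saa3 put BP above B6.

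**Figure D3:**
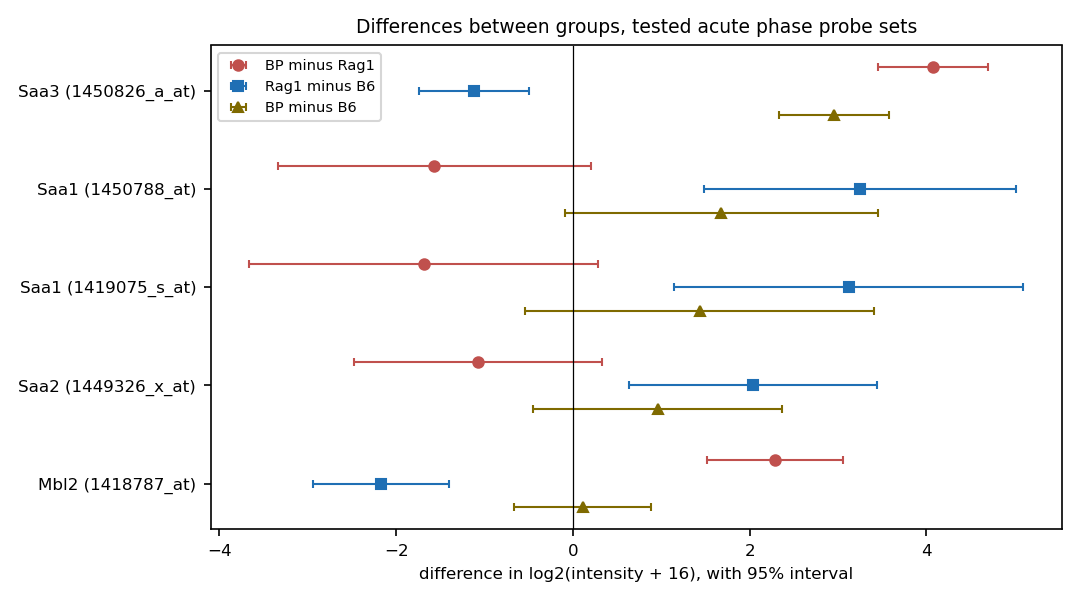
Differences between group means of log2(intensity + 16) for the 5 tested probe sets, with 95% intervals from the fit over all 9 arrays, for BP minus Rag1, Rag1 minus B6 and BP minus B6. Saa3 is 4.07 above Rag1 in BP, and Mbl2 is at -2.17 for Rag1 minus B6; the intervals of Saa1 and Saa2 are wide in all comparisons.

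Lcn2 was dim in every group. Its intensity was 2.498, 25.7 and 40.2 on BP replicates 1, 2 and 3, 28.99, 33.7 and 7.62 on Rag1 replicates 1, 2 and 3, and 13.6, 18.6 and 14.5 on B6 replicates 1, 2 and 3. The groups overlapped, and BP alone spanned 16.1-fold. The log2 differences were -0.13 for BP minus Rag1, 0.18 for Rag1 minus B6 and 0.05 for BP minus B6. With no filter on brightness the limma adjusted p were 0.999 for Rag1 minus B6 and 0.977 for BP minus B6. No array had an Lcn2 intensity above 40.2, and a difference among values this dim could be missed. The files give no detection calls, so the transcript was not declared absent.

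Counted together, 2 of 5 tested member probe sets were called in BP against Rag1, both higher, where 3.80% of all tested probe sets were called; the choice of genes used this comparison, so the count carries no weight. In Rag1 against B6, 1 of 5 was called lower (0.259% of all were), and 5 of 5 had groups that did not overlap, 3 with Rag1 above (14.0% of all) and 2 with Rag1 below (5.10% of all). All 5 had an unadjusted p under 0.05 there, as did 5.56% of all tested probe sets, but 3 of the 5 may share the Saa1 and Saa2 signal. In BP against B6, 1 of 5 was called higher (0.0592% of all were), and 2 of 5 had groups that did not overlap, both with BP above (2162 of all 27022 probe sets had BP above). The calls against B6, of Mbl2 and Saa3, reuse arrays of the comparison behind the choice of genes and are descriptions only. The median log2 difference of the 5 tested probe sets was -1.08, 2.03 and 1.44 in the 3 comparisons, against -0.045, 0.010 and -0.042 for all tested probe sets.

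**Figure D4:**
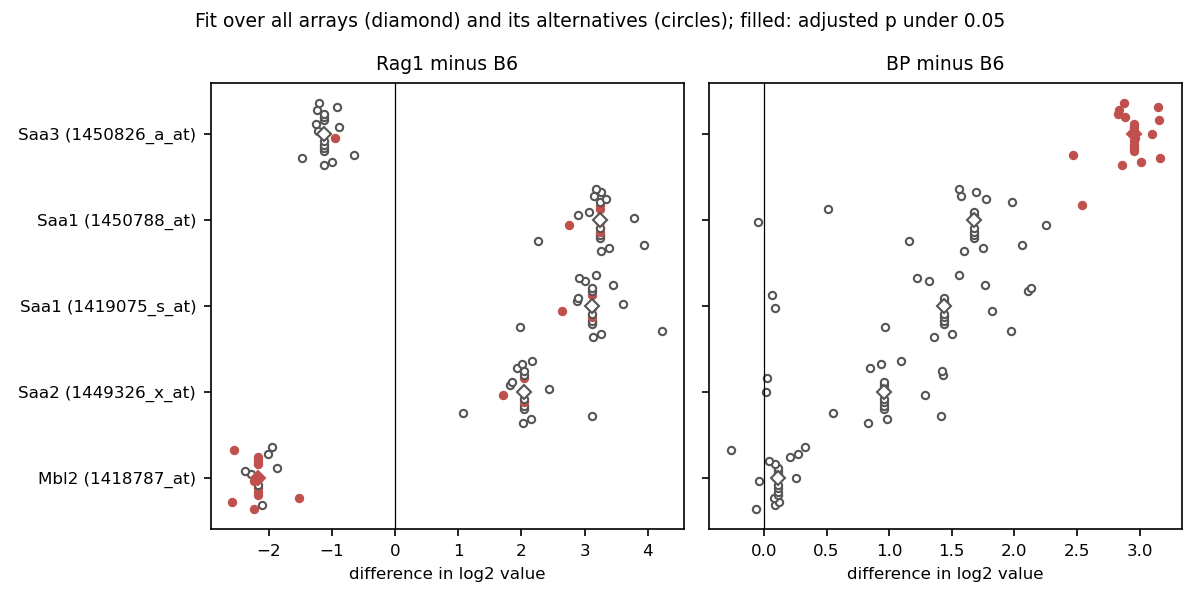
Log2 differences for Rag1 minus B6 and BP minus B6 of the 5 tested probe sets in the fit over all 9 arrays (diamonds) and its alternatives (circles), filled where the adjusted p was under 0.05. Saa3 passes in BP minus B6 under every alternative run, and the Saa1 and Saa2 calls in Rag1 minus B6 come from a few alternatives.

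Cells that could supply these transcripts were followed by marker lists. Hepatocyte markers summed to 402 to 607 in BP, 340 to 515 in Rag1 and 351 to 414 in B6, with 5 of 8 past the filter. Albumin itself did not pass, at 1.14 to 36.3 in BP, 10.6 to 28.6 in Rag1 and 13.8 to 23.6 in B6. Neutrophil markers summed to 222 to 403 in BP, 287 to 358 in Rag1 and 264 to 348 in B6. Only 2 of these 10 were bright enough to be tested, and the defining genes S100a8, S100a9, Mpo and Elane were not. Macrophage and monocyte markers, 10 of 12 tested, summed to 7362 to 8189 in BP, 7523 to 8865 in Rag1 and 5403 to 8186 in B6. The summed levels of these 3 lists overlapped between all groups, but the macrophage sum was mostly Lyz2, at 4446 to 4946 in BP, 5639 to 6599 in Rag1 and 3540 to 5809 in B6. Among the other tested macrophage markers, Csf1r, C1qb and C1qc had every BP array above every Rag1 array. Adgre1, Cd68, Cd14, Cx3cr1, Mrc1 and C1qa overlapped between these groups. Their log2 differences for BP minus Rag1 were -0.01, -0.14, -0.28, -0.03, 0.26 and 0.83, in this order. The growth factor receptor Csf1r was at 1001 to 1194 in BP, 695 to 820 in Rag1 and 584 to 850 in B6, and the complement subunit C1qc at 352 to 413 in BP, 198 to 318 in Rag1 and 290 to 342 in B6, with BP above both other groups for each. C1qb was at 227 to 652 in BP, above the 155 to 185 in Rag1 and overlapping the 107 to 238 in B6. In limma none of these 3 passed in BP against Rag1 (adjusted p = 0.162, 0.169 and 0.0538) or BP against B6 (0.166, 0.591 and 0.140). Adipocyte markers, 4 of 5 tested, summed to 793 to 966 in BP, below the 1004 to 1306 in Rag1 and overlapping the 950 to 1103 in B6. Enterocyte markers, 9 of 9 tested, summed to 46652.5 to 53755.7 in BP, 47185.7 to 52310 in Rag1 and 51235 to 56179.9 in B6. Paneth cell markers, 5 of 5 tested, summed to 24338.9 to 26480.2 in BP, 23142.8 to 29030.1 in Rag1 and 10409.8 to 24618.5 in B6. The enterocyte and Paneth cell sums each overlapped between all groups. In limma the enterocyte gene Epcam was called lower in BP against Rag1 (-0.47, adjusted p = 0.0389). Pla2g2a of the Paneth cell list was called lower there too (-1.67, adjusted p = 0.0123) and higher in Rag1 against B6 (1.71, adjusted p = 0.0173). No other gene of the enterocyte and Paneth cell lists was called in any comparison. The part of the listed cell types in the Saa3, Saa1, Saa2 and Mbl2 values was not tested. In bulk tissue a change in the number of cells of a type and a change in RNA per cell cannot be told apart.

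Genes around the acute phase response were read from 7 lists with 110 distinct genes, of which 75 were bright enough to be tested, by the brightest probe set of each. In BP against Rag1, 2 were called higher and 4 lower (limma, adjusted p under 0.05), so that 8% of the 75 were called. Of all 13570 genes tested this way 3.26% were called, 149 higher and 294 lower. With only the BP and Rag1 arrays fitted, 5 of the 6 no longer passed (adjusted p = 0.0889 to 0.126), and Fth1, the exception, lost its call without Rag1 replicate 1 or 2 (adjusted p = 0.0611 and 0.0513). The median log2 difference of the 75 genes was -0.10, against -0.02 for all genes. No gene of the lists was called in Rag1 against B6 or in BP against B6, where 10 and 15 of the 75 (13.3% and 20.0%) had an unadjusted p under 0.05, as did 787 and 1893 of all 13570 genes (5.80% and 13.9%). After adjustment, of all genes 0.391% (0.0737% higher, 0.317% lower) and 0.582% (0.0368% higher, 0.545% lower) were called in these comparisons.

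Among 11 tested other acute phase proteins, Lbp, the binding protein for bacterial lipopolysaccharide, rose and the complement factor Cfb fell in BP against Rag1. Lbp probe set 1447520_at had 68.1, 112 and 80.9 on the BP arrays and 27.0, 32.6 and 40.05 on the Rag1 arrays (1.103 ± 0.23, adjusted p = 0.0293). Its second tested probe set differed by -0.12 ± 0.33 (adjusted p = 0.887), so the rise rested on 1 of 2 probe sets. Cfb, which forms the alternative pathway convertase, had 359.9, 539.7 and 266 on the BP arrays and 788, 699 and 727 on the Rag1 arrays (-0.88 ± 0.18, adjusted p = 0.0287). In Rag1 against B6, Cfb and Lbp had values of 0.55 and -0.64 (adjusted p = 0.596 and 0.695). The liver acute phase genes Crp, Apcs, Hp, Fga, Fgb and Fgg were not bright enough to be tested. The list's median was -0.21 in BP against Rag1 and -0.05 in Rag1 against B6.

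Of 6 tested inducing cytokines none was called; 0 had an unadjusted p under 0.05 in BP against Rag1. Il1b, an inducer of Saa genes, had 48.6, 66.7 and 39.9 on the BP arrays and 55.4, 85.8 and 82.5 on the Rag1 arrays (-0.37 ± 0.25, adjusted p = 0.460). Il22 and Il17f had no probe set assigned to their symbol alone, so they were not measured here. Il6 was below the filter, at 31.2, 9.89 and 8.94 on the BP arrays. These lay above all Rag1 arrays (at most 4.97) and all B6 arrays (at most 8.52), but were too dim to be tested. Ifng, Il1a, Il11 and Il23a were below the filter too, and their groups overlapped. None of 15 tested cytokine receptors and kinases was called. Jak1, the kinase below the interleukin-6 and interleukin-22 receptors, had the smallest p of that list in BP against Rag1, with all BP arrays below all Rag1 arrays (-0.70 ± 0.20, adjusted p = 0.0743).

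Of 14 tested transcription factors and feedback genes, 1 rose and 2 fell in BP against Rag1. Cebpb, induced in the acute phase response, had 208, 367 and 295 on the BP arrays, 167, 149 and 122 on the Rag1 arrays, and 227, 209 and 206 on the B6 arrays (BP minus Rag1 1.03 ± 0.22, adjusted p = 0.0308). Its other tested probe set was at -0.64 ± 0.25 (adjusted p = 0.171), with the opposite sign. Cebpa, an epithelial and hepatocyte differentiation factor, had 291, 314 and 327 on the BP arrays and 519, 668 and 705 on the Rag1 arrays (-0.89 ± 0.21, adjusted p = 0.0411). Bcl3, an atypical inhibitor protein of NF-kappaB, fell by 0.84 on the log2 scale (SE 0.21, adjusted p = 0.0497), and Cebpd and Socs3 had the smallest p in Rag1 against B6, at 0.72 ± 0.24 and 0.74 ± 0.26 (adjusted p = 0.597 and 0.647).

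In the lectin and complement list, with 13 tested genes, Cfb was the only one called. C1qb, a subunit of the classical pathway initiator, had the smallest p in BP against B6 (1.04 ± 0.30, adjusted p = 0.140). In the list of iron and siderophore handling, with 7 tested genes, the ferritin heavy chain Fth1 fell in BP against Rag1. Probe set 1427021_s_at had 2792, 3809.8 and 2899 on the BP arrays and 6901, 5915 and 6679.5 on the Rag1 arrays (-0.94 ± 0.13, adjusted p = 0.00833), while its other tested probe set was at 0.07 ± 0.17 (adjusted p = 0.869). None of 10 tested SAA receptors and lipoprotein partners was called. The fatty acid transporter Cd36 had a value of -0.98 ± 0.44 in Rag1 against B6 (adjusted p = 0.880).

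**Figure D5:**
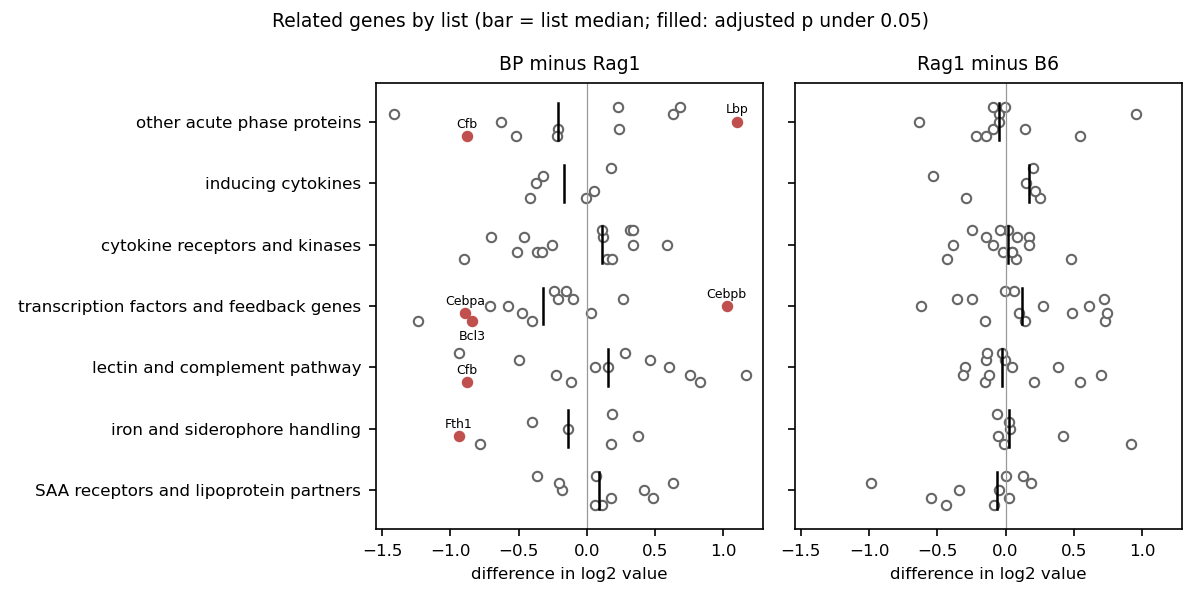
Log2 differences of the tested genes of the 7 related lists for BP minus Rag1 and Rag1 minus B6; each circle is a gene, bars are list medians, and filled circles have an adjusted p under 0.05. Lbp and Cebpb are the 2 genes called higher and Cfb, Cebpa, Bcl3 and Fth1 the 4 called lower in BP minus Rag1; Cfb appears in 2 lists.

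The genes most like each member were found by Pearson's r of normalized values over the 9 arrays, which reflects the same 3 groups and the same BP split and is given without a test. Saa3 was most like Mrpl44, a mitochondrial ribosomal protein (r = 0.986), Wfdc17 (0.971) and Alas2, the first enzyme of heme synthesis in red cell precursors (0.966). Wfdc17 had 223, 279 and 274 on the BP arrays, 56.6, 52.4 and 61.1 on the Rag1 arrays, and 56.4, 73.5 and 96.7 on the B6 arrays, so it too was highest on every BP array. Mbl2 was most like Dglucy, which encodes D-glutamate cyclase (0.993), Eepd1 (0.974) and the retinol dehydrogenase Rdh7 (0.956). Rdh7 had 1142, 1824 and 1259 on the BP arrays, 552, 514 and 420.3 on the Rag1 arrays, and 1357, 1226 and 1242 on the B6 arrays.

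Saa1 was most like Zer1, a substrate receptor of a ubiquitin ligase (0.965), Gdpd1 (0.944) and Inava (0.934), and Saa2 was most like Zer1 (0.924), the stress-response gene Gadd45g (0.919) and Sptssb (0.916), a subunit of the enzyme that starts sphingolipid synthesis. Zer1 had 44.8, 14.8 and 15.7 on the BP arrays, 37.4, 70.4 and 78.1 on the Rag1 arrays, and 9.94, 8.49 and 2.79 on the B6 arrays, with the same high BP replicate 1. Lcn2, dim as it was, was most like Cd300ld (0.947), Aoc3 (0.936) and Wdr74 (0.906). Among the members themselves, Saa3 correlated with Mbl2 at 0.636 and with Saa1 at -0.259, and Saa1 with Mbl2 at -0.597.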

How the data were processed

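The authors deposited linear intensity values for each probe set, from 1 to 21694; the software and any scaling are not given in the sources used here. Total RNA, 20 µg a sample, was turned into biotin-labelled cRNA, per the labels' protocols. Array medians ran from 29.4 to 48.0, and no detection calls were given. Intensities were quantile-normalized as log2(value + 16), which understates changes of dim genes. The 64 control probe sets and the lowest 40% by mean were left out, which kept 27022. Groups came from the sample titles. The test of each difference was limma's, version 3.58.1 under R 4.3.3 (1 mean per group, 6 residual degrees of freedom, intensity trend, two-sided, Benjamini-Hochberg over all tested probe sets, threshold 0.05), after testing on simulated data. Those simulated data gave all groups the same spread. In the real data the median SD on the log2 scale was 0.44 in BP, 0.21 in Rag1 and 0.23 in B6, which the simulation does not cover. Gene names came from the platform annotation, where 34945 probe sets had 1 symbol, 932 several and 9160 none, and 5 of 5 members had a RefSeq promoter. The named genes were the members, list genes past the threshold (up to 4 a list, or up to 2 of the smallest p) and the 3 genes most like each member; other names, such as the dim genes, the second probe sets and the controls, were added after their values were seen, and some genes that the rule allows are left out. Members and lists were chosen with earlier results of these data known. Alternatives were median centring, the values as deposited, pseudocounts 1 and 64, no filter, the lowest 60% left out, only the 2 groups compared, a replicate block, array weights, the mean of a gene's probe sets, and leaving out arrays. For 6 related genes they were added after seeing the data.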

Additional observations from a re-analysis of the deposited data

How the results depend on the processing

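The 3 arrays of each group limit the precision, and dim probe sets such as Lcn2 lie near the background. Saa3 kept its direction in all 3 comparisons and its call in BP against B6 under each of 19 alternatives. All of these use BP or Rag1 arrays of the comparison behind its choice, so they are no independent support. The counts of all probe sets called were 1027 (298 higher and 729 lower) for BP against Rag1, 89 for Rag1 against B6 and 171 for BP against B6. Fitting only the 2 groups compared gave 183, 338 and 51, array weights 4023, 1050 and 856, and BP replicate 2 as the lone BP array, assumed to vary like the other groups, 5936, 336 and 5657. Leaving out single arrays gave 18 to 5275, 37 to 347 and 55 to 3029. BP against B6 had 499 with median centring and 108 with the values as deposited. For BP against Rag1 these scalings gave 158 higher and 1054 lower, and 130 higher and 641 lower; the median of all tested probe sets then was -0.12 and -0.09. With the values as deposited, that median was 0.12 for Rag1 against B6, and with median centring -0.13 for BP against B6. The 2, 1 and 1 member probe sets called in the 3 comparisons became 5, 5 and 1 with BP replicate 2 alone. They ranged from 1 to 5, 0 to 4 and 1 to 2 without single arrays; the highest counts came without BP replicate 1, BP replicate 1 and BP replicate 2. In Rag1 against B6 the member count was 4 with only those groups, 5 with array weights, and 0 in limma with the values as deposited and with a replicate block, where 5 had an unadjusted p under 0.05; 5 also had one wherever leaving out an array gave 0. Among the tested probe sets of these genes, the values that changed sign were all in BP against B6: Mbl2 at -0.063 with median centring, -0.043 with array weights and -0.27 without B6 replicate 2 (-0.27 to 0.33 without single arrays), and Saa1 probe set 1450788_at at -0.049 with BP replicate 2 alone; the cause was not tested. The small differences of the dim Lcn2 had no settled sign: they ranged from -0.54 to 0.30 for BP against Rag1, -0.0044 to 0.47 for Rag1 against B6 and -0.36 to 0.47 for BP against B6. Arrays with the same number did not deviate together (correlations -0.185 to 0.234, 5 of 18 best with their own number), and the replicate block gave 799, 74 and 142 probe sets. Of the 6 related genes called in BP against Rag1, all kept their direction under 19 alternatives, and between 6 (Bcl3) and 17 (Fth1) of these passed.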
